A study of Mus musculus with 12 samples.

Results

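The genotype difference that granulosa cells of bERKO mice kept after 2 hormone treatments was examined across 18193 genes on all 12 arrays of the study. A member was a gene that differed between 6 bERKO and 6 wild-type (WT) arrays with treatment as a block, in the same direction after each treatment and with similar size. Similar size meant that the smaller of the 2 within-treatment differences was at least 0.5 of the larger. With an adjusted p under 0.05, 0 of 18193 genes met the rule. The text therefore describes 20 leading genes, the 10 with the smallest p in each direction among genes of the same sign and similar size. They stand within a wider set of 806 genes of the same sign and similar size whose unadjusted p was under 0.05.

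bERKO mice lack estrogen receptor beta, the product of Esr2, in every tissue, so that other cells of the ovary and the pituitary lack it too. All mice were 3 weeks old and had been given pregnant mare serum gonadotropin (PMSG) 48 h before collection; mice of the hCG groups were given human chorionic gonadotropin (hCG) as well, 4 h before collection. Mice of every group were thus stimulated with PMSG, and no untreated group was measured. Granulosa cells were cut from preovulatory follicles by laser, and 25 ng of their RNA was amplified and hybridised. Each of the 4 groups held 3 arrays: WT PMSG, bERKO PMSG, WT hCG and bERKO hCG. The labels call these biological replicates without giving the animals behind each array, so p-values measure only the spread between these samples.

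Granulosa cells surround the oocyte and make estradiol from androgens supplied by the theca. Estrogen receptor beta is their main estrogen receptor, a nuclear receptor that binds DNA as a dimer and changes transcription of nearby genes. PMSG acts like follicle-stimulating hormone and brings follicles to the preovulatory stage, and hCG acts like luteinizing hormone and starts ovulation and luteinization.

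Levels are log2(intensity + 16) after quantile normalization, and a difference is bERKO minus WT on that scale; near 4, the floor that the offset sets, it understates the change. The authors had scaled each array to a common mean, and median deposited intensity ran from 49.1 to 112.8. The 3'/5' ratio of the Gapdh control probes, a measure that rises with degraded or incompletely copied RNA, lay between 4.72 and 11.2 on 10 arrays; bERKO PMSG replicate 3 reached 23.7 and WT hCG replicate 1 reached 32.2. The 14 measured granulosa markers had a mean level of 12.16 to 12.59 on the arrays of 3 groups and of 11.05 to 11.20 on the bERKO hCG arrays. The samples are bulk, so fewer cells of a type and less RNA per cell cannot be told apart.

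Id3 and Fam110c had the smallest p in each direction. Id3 encodes an inhibitor of DNA binding that sequesters basic helix-loop-helix transcription factors and is a classic target of bone morphogenetic protein (BMP) signals, and Fam110c encodes a protein associated with the centrosome and microtubules. Their promoters are shown because estrogen receptors bind the half-site AGGTCA. Each line gives the 250 bases before the RefSeq start, 5′ to 3′, in build GRCm38.p6. Id3 lies at chr4:136143572-136143821 and Fam110c at chr12:31073718-31073967, both on the plus strand; capitals would mark a half-site on either strand, and neither sequence holds one.
Id3: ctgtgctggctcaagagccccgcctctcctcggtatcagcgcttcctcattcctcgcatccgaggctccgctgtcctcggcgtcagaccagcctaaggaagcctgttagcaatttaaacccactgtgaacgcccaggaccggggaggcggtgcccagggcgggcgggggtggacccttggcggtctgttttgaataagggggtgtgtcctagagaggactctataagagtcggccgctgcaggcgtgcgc
Fam110c: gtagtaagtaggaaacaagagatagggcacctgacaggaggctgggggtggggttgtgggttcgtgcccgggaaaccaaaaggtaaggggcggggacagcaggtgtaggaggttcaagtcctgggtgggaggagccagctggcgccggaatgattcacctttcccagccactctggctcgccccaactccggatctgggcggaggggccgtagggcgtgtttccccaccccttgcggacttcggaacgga

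RefSeq windows that also take in the 50 bases after the start were given for 14452 of the tested genes and for 17 of the 20 leading genes. The letters AGGTCA, on either strand, occurred in 16.5% of all windows. They occurred in 15.8% of the windows of the 297 genes of the wider set that were higher in bERKO, and in 15.6% of those of the 340 that were lower. Among the leading genes 0 of 17 windows held them. The inverted repeat of the half-site with a spacer of 3 bases occurred in 1 of the 14452 windows. These counts describe short windows and say nothing of receptor binding there or elsewhere.

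Esr2, the disrupted gene, was lower on the bERKO arrays after each treatment. Its level was 10.33, 9.01 and 9.33 on the WT PMSG arrays and 8.19, 8.64 and 8.13 on the bERKO PMSG arrays. After hCG it was 8.68, 9.52 and 8.78 in WT and 8.34, 8.13 and 8.53 in bERKO. The genotypes did not overlap within either treatment. The difference was -1.24 after PMSG and -0.66 after hCG, and -0.95 (SE 0.27) with treatment as a block, which did not pass in limma over all genes (adjusted p = 0.286). The exact two-sided permutation test of this single gene, over 400 arrangements of genotype within treatment, gave p = 0.005, the smallest it can give. Esr2 had 1 probe set; where it lies relative to the disrupted exon was not given in the sources used here, and it checks the labels only in part.

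A difference common to the treatments was uncommon among all genes. limma with treatment as a block called 0 genes (0% of those tested), and the smallest adjusted p was 0.0699, for Id3. At an unadjusted p under 0.05 it took in 1889 genes (10.4%), of which 1787 had the same sign after each treatment and 806 (4.43%) also had similar size. Of these 806, 386 (2.12%) were higher and 420 (2.31%) lower in bERKO. A small p in this fit itself favours the same sign, since unlike differences cancel and go into the residual. Among all genes, 46.6% had the same sign and 18.0% also had similar size. A fit of 4 group means, which keeps the difference between treatments out of the residual, called 26 genes (0.143%) for the average difference, 7 higher and 19 lower. Only 8 of those 26 met the rule of same sign and similar size: Fam110c and Tcl1 were higher, and Id3, Me2, Dixdc1, Ank1, Mir1949 and the predicted gene Gm39954 were lower. These 8 calls did not hold up to single arrays: 0 of the 8 remained when any of 5 arrays was left out (replicates 1 and 2 of WT PMSG, replicate 1 of bERKO PMSG, replicates 1 and 2 of bERKO hCG). Without the pair of arrays of high Gapdh ratio that fit called 0 genes, with a smallest adjusted p of 0.0503.

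The genotype differences after PMSG and after hCG come from separate arrays, and across genes they ran slightly against each other. Pearson's r over the 18193 genes was -0.121 and Spearman's rho -0.0797; genes are not independent replicates, and the arrays share a normalization. The sign was the same for 46.6% of genes. That share moved with the processing: it was 48.4% with values as deposited and 49.6% with arrays centred on their median. It was 48.7% without the 2 arrays of highest Gapdh ratio. With 1 array left out it ran from 45% (WT hCG replicate 3) to 49.4% (WT hCG replicate 1). The WT and bERKO arrays lay apart in the same direction in each treatment for 264 genes (1.45%), 115 higher and 149 lower, and in opposite directions for 458 genes (2.52%).

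**Figure D1:**
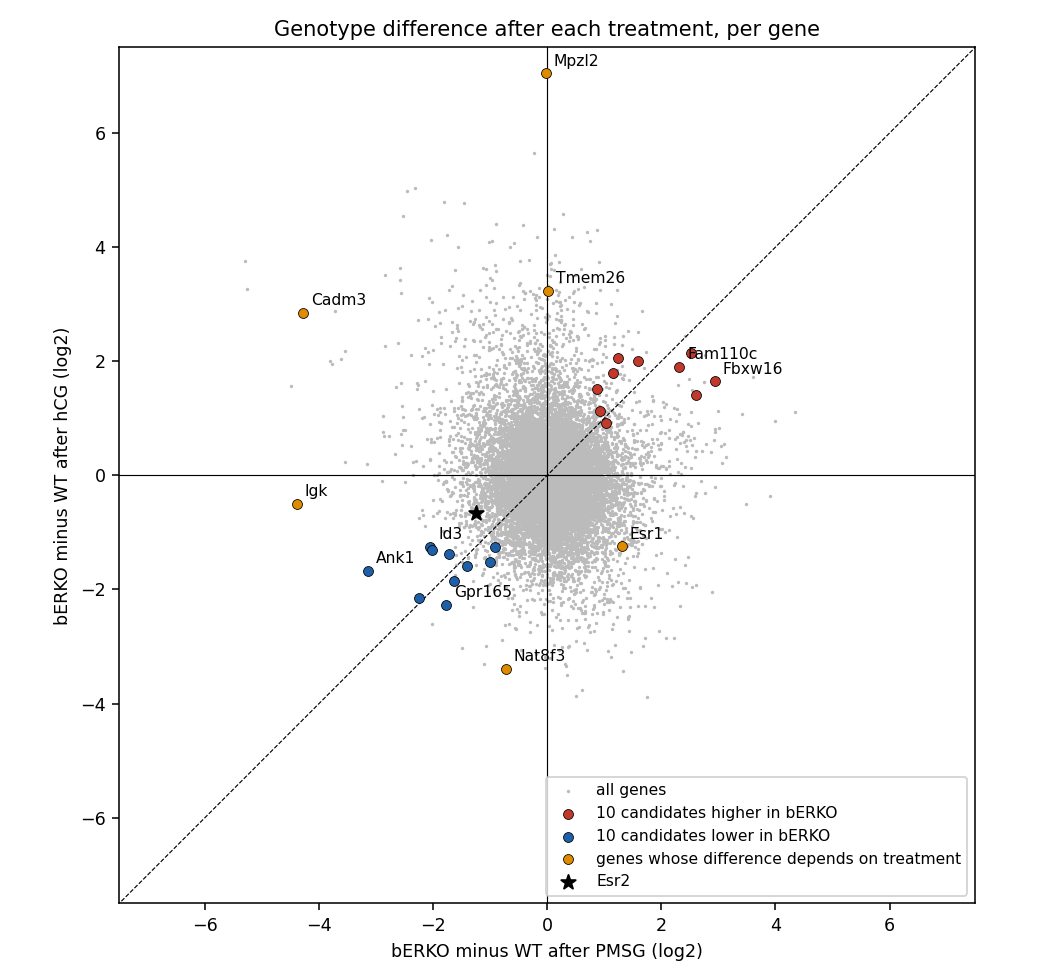
Each point is a gene, with bERKO minus WT after PMSG on the horizontal axis and after hCG on the vertical axis, both in log2 units; the dashed line marks equal differences. The 20 leading genes lie near that line in the upper right and lower left corners, while Cadm3 and Esr1 lie in the corners of opposite sign and Mpzl2 and Tmem26 near 0 after PMSG.

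Genes picked on the arrays of a single treatment gave the same picture on the arrays the pick did not use. In a limma fit of the 6 PMSG arrays alone, 391 genes had an unadjusted p under 0.01, and 133 of them (34%) had the same sign after hCG. Of these 391, 28 differed in the same direction after hCG at an unadjusted p under 0.05 and 95 in the opposite direction; 17.5% of all genes had such a p after hCG. Of 1270 genes picked likewise on the 6 hCG arrays, 518 (40.8%) had the same sign after PMSG, 51 differing there in the same direction and 138 in the opposite one; 8.59% of all genes had such a p after PMSG. The share of same sign depended on the limit of the pick. With an unadjusted p under 0.05 in these limma fits it was 42.1% of 1562 genes picked on PMSG and 43.4% of 3186 picked on hCG. With a p under 0.001 it was 35.1% of 57 and 35.3% of 306. Among all genes the share was 46.6%, and the difference between these shares was not tested. The picks were not repeated with arrays left out.

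Among genes lower in bERKO, Id3 stood first. Its level was 12.34, 12.14 and 11.85 on the WT PMSG arrays and 10.12, 9.96 and 10.12 on the bERKO PMSG arrays. After hCG it was 11.13, 10.93 and 11.23 in WT and 9.54, 9.60 and 10.40 in bERKO. All 6 bERKO arrays lay below all 6 WT arrays. The difference was -2.05 after PMSG and -1.25 after hCG, and -1.65 (SE 0.23) with treatment as a block in limma (adjusted p = 0.0699; 0.019 in the fit of 4 group means). The difference between those differences was 0.80, with a 95% interval from -0.07 to 1.67.

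Id3 belongs to a family with 4 members, of which Id1 was the other in the wider set. Id1 ran from 8.35 to 8.48 in WT PMSG, 7.39 to 8.07 in bERKO PMSG, 7.6 to 8.09 in WT hCG and 6.28 to 7.0 in bERKO hCG. Its differences were -0.60 and -1.12, and -0.86 (SE 0.22) with treatment as a block (limma adjusted p = 0.269). Id2 measured -0.44 after PMSG and 0.90 after hCG, and Id4 0.48 and 1.78, so that neither followed Id3. Smad4, the common partner of the receptor-activated SMAD proteins, was at -0.37 and -0.38. Of 37 measured genes of the inhibin, activin and BMP list, 4 were in the wider set (10.8% against 4.43% of all genes). The 4 were Id1, Id3, Smad4 and Amh, the granulosa hormone that restrains follicle growth, and only Amh was higher in bERKO. Amh lay near the floor on the WT arrays, and its genotypes overlapped in each treatment. The median blocked difference of the list was -0.08, beside -0.01 over all genes, and 0 of its genes passed in that fit.

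Ihh encodes Indian hedgehog, a signal that granulosa cells send to the theca. It measured 9.54, 8.69 and 9.01 in WT PMSG and 8.09, 8.15 and 7.99 in bERKO PMSG. After hCG it measured 7.93, 8.36 and 8.62 in WT and 6.40, 6.89 and 7.08 in bERKO. The genotypes lay apart in each treatment. The differences were -1.01 and -1.51, and -1.26 (SE 0.22) with treatment as a block (limma adjusted p = 0.157; 0.0546 in the fit of 4 group means). Genes that hedgehog signals raise in theca cells did not follow Ihh in each treatment: Ptch1 was at 0.24 after PMSG and -1.06 after hCG, Gli1 at 0.30 and -0.38, and Hhip at -0.01 and 1.74. Gli1 lay near the floor, and its value after hCG rested on WT hCG replicate 1, at 5.55 beside 4.41 and 4.17. The Hhip value after PMSG was too close to 0 to give a direction.

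Me2, the mitochondrial malic enzyme that makes pyruvate from malate, measured 11.63, 11.75 and 11.57 in WT PMSG and 9.55, 10.24 and 10.24 in bERKO PMSG. After hCG the levels were 10.25, 10.62 and 11.73 in WT and 9.36, 8.88 and 8.79 in bERKO. WT hCG replicate 3 was as high as the WT PMSG arrays, and the genotypes lay apart in each treatment. The differences of -1.64 and -1.86 gave -1.75 (SE 0.26) with treatment as a block (limma adjusted p = 0.0999; 0.0402 in the fit of 4 group means). Its 3 other probe sets were lower in bERKO as well after each treatment, by -0.41 to -2.00.

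Dixdc1, a DIX-domain protein that takes part in Wnt signalling, had the most even differences of the 10 leading lower genes, -2.25 and -2.15. It measured 8.43, 8.46 and 9.44 in WT PMSG against 5.41, 7.15 and 7.0 in bERKO PMSG. After hCG it measured 7.91, 7.03 and 8.35 in WT against 5.49, 5.24 and 6.10 in bERKO. The groups lay apart in each treatment, and the blocked difference was -2.20 (SE 0.35; limma adjusted p = 0.117; 0.0437 in the fit of 4 group means). Its other probe sets measured -2.04 and -1.82, -1.81 and -1.07, and -0.31 and 0.25, the last without keeping its sign. Of 37 measured genes of the Wnt list, 0 were in the wider set, and the list's median blocked difference was 0.07.

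Pih1d2, a PIH1-domain protein, lies beside Dixdc1 with a single tested gene, Dlat, between them. Its 6 WT arrays ran from 5.46 to 6.77 and its 6 bERKO arrays from 4.20 to 5.39, with differences of -1.41 and -1.58. Dlat, an enzyme subunit of the pyruvate dehydrogenase complex, measured -0.51 after PMSG and 0.56 after hCG.

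Ank1, which ties membrane proteins to the spectrin skeleton, had the largest blocked difference of the lower leading genes. It measured 10.41, 9.93 and 9.66 in WT PMSG and 7.46, 7.09 and 6.0 in bERKO PMSG. After hCG the levels were 7.12, 9.16 and 7.87 in WT and 6.36, 6.24 and 6.52 in bERKO. The groups lay apart in each treatment, by the least between WT hCG replicate 1 and the bERKO hCG arrays. The differences of -3.15 and -1.68 gave -2.41 (SE 0.40) with treatment as a block (limma adjusted p = 0.125; 0.038 in the fit of 4 group means). Averaged over its 4 probe sets the blocked difference was -0.90.

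Of the remaining lower genes, Alms1, a protein of centrosomes and the base of cilia, was at 11.79 to 12.02 in WT PMSG and 9.61 to 10.23 in bERKO PMSG, then at 8.11 to 10.13 in WT hCG and 7.6 to 7.98 in bERKO hCG. Its differences were -2.02 and -1.32. Gpr165, an orphan G protein-coupled receptor, spanned 6.82 to 9.47 within WT hCG, and its differences were -1.78 and -2.27. Slc35b4, a transporter of nucleotide sugars into the Golgi, ran from 8.45 to 8.92 over the 6 WT arrays and from 7.23 to 8.16 over the 6 bERKO arrays, so that all bERKO arrays lay below all WT arrays; its differences were -0.91 and -1.25, and its 2 other probe sets had the same direction. The probe set annotated with the microRNA gene Mir1949 measured 4.30, 5.13 and 4.33 in bERKO PMSG, near the floor, and had differences of -1.73 and -1.38. Whether that signal reflects the mature microRNA was not tested.

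Among genes higher in bERKO, Fam110c had the smallest p. It measured 7.16, 6.67 and 7.75 in WT PMSG and 9.39, 9.01 and 10.14 in bERKO PMSG. After hCG it measured 9.47, 10.64 and 11.21 in WT and 12.001, 12.12 and 12.91 in bERKO. The genotypes lay apart in each treatment, and the highest bERKO PMSG array exceeded the lowest WT hCG array. The differences were 2.32 and 1.90, and 2.11 (SE 0.33) with treatment as a block (limma adjusted p = 0.117; 0.0408 in the fit of 4 group means). Its other probe set was also higher in bERKO, by 1.34 and 2.32.

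Alcam, an adhesion molecule of the immunoglobulin family, was likewise lowest in WT PMSG and highest in bERKO hCG. It measured 8.81, 9.21 and 8.92 in WT PMSG and 10.68, 10.18 and 10.83 in bERKO PMSG. After hCG the levels were 9.33, 10.82 and 11.39 in WT and 12.43, 12.63 and 12.51 in bERKO. WT hCG replicate 1 was the lowest of its group and close to the WT PMSG arrays. The differences were 1.59 and 2.01, and 1.80 (SE 0.31) with treatment as a block (limma adjusted p = 0.142; 0.056 in the fit of 4 group means). Without WT hCG replicate 1 the blocked difference was 1.51 and passed, with an adjusted p of 0.045 in limma. All 5 Alcam probe sets were higher in bERKO after hCG, and 4 of the 5 after PMSG.

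Zswim6, a zinc-finger protein of the SWIM type, showed a similar order with smaller steps. It measured 8.72, 9.05 and 8.82 in WT PMSG against 9.73, 9.27 and 10.18 in bERKO PMSG. After hCG it measured 8.98, 9.83 and 9.93 in WT against 10.991, 10.996 and 11.27 in bERKO. The differences were 0.86 and 1.51, and 1.18 (SE 0.24) with treatment as a block (limma adjusted p = 0.191). Its other probe set measured -0.29 after PMSG and 1.38 after hCG, and so did not keep its sign.

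Klf2, a Krüppel-like transcription factor, had the most even differences of the 10 leading higher genes. It measured 6.88, 7.32 and 6.62 in WT PMSG against 8.02, 8.13 and 7.76 in bERKO PMSG. After hCG the levels were 6.98, 7.79 and 7.65 in WT against 8.39, 8.36 and 8.40 in bERKO, whose 3 arrays were nearly equal. The differences were 1.03 and 0.91, and 0.97 (SE 0.20) with treatment as a block (limma adjusted p = 0.194). Ermp1, a metallopeptidase of the endoplasmic reticulum, ran from 9.13 to 9.93 over the WT arrays and from 10.03 to 10.95 over the bERKO arrays, with differences of 0.92 and 1.14. Its 2 other probe sets were lower in bERKO after PMSG, at -0.42 and -0.58, and measured 0.82 and -0.35 after hCG; the mean of the 3 gave a blocked difference of 0.25.

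**Figure D2:**
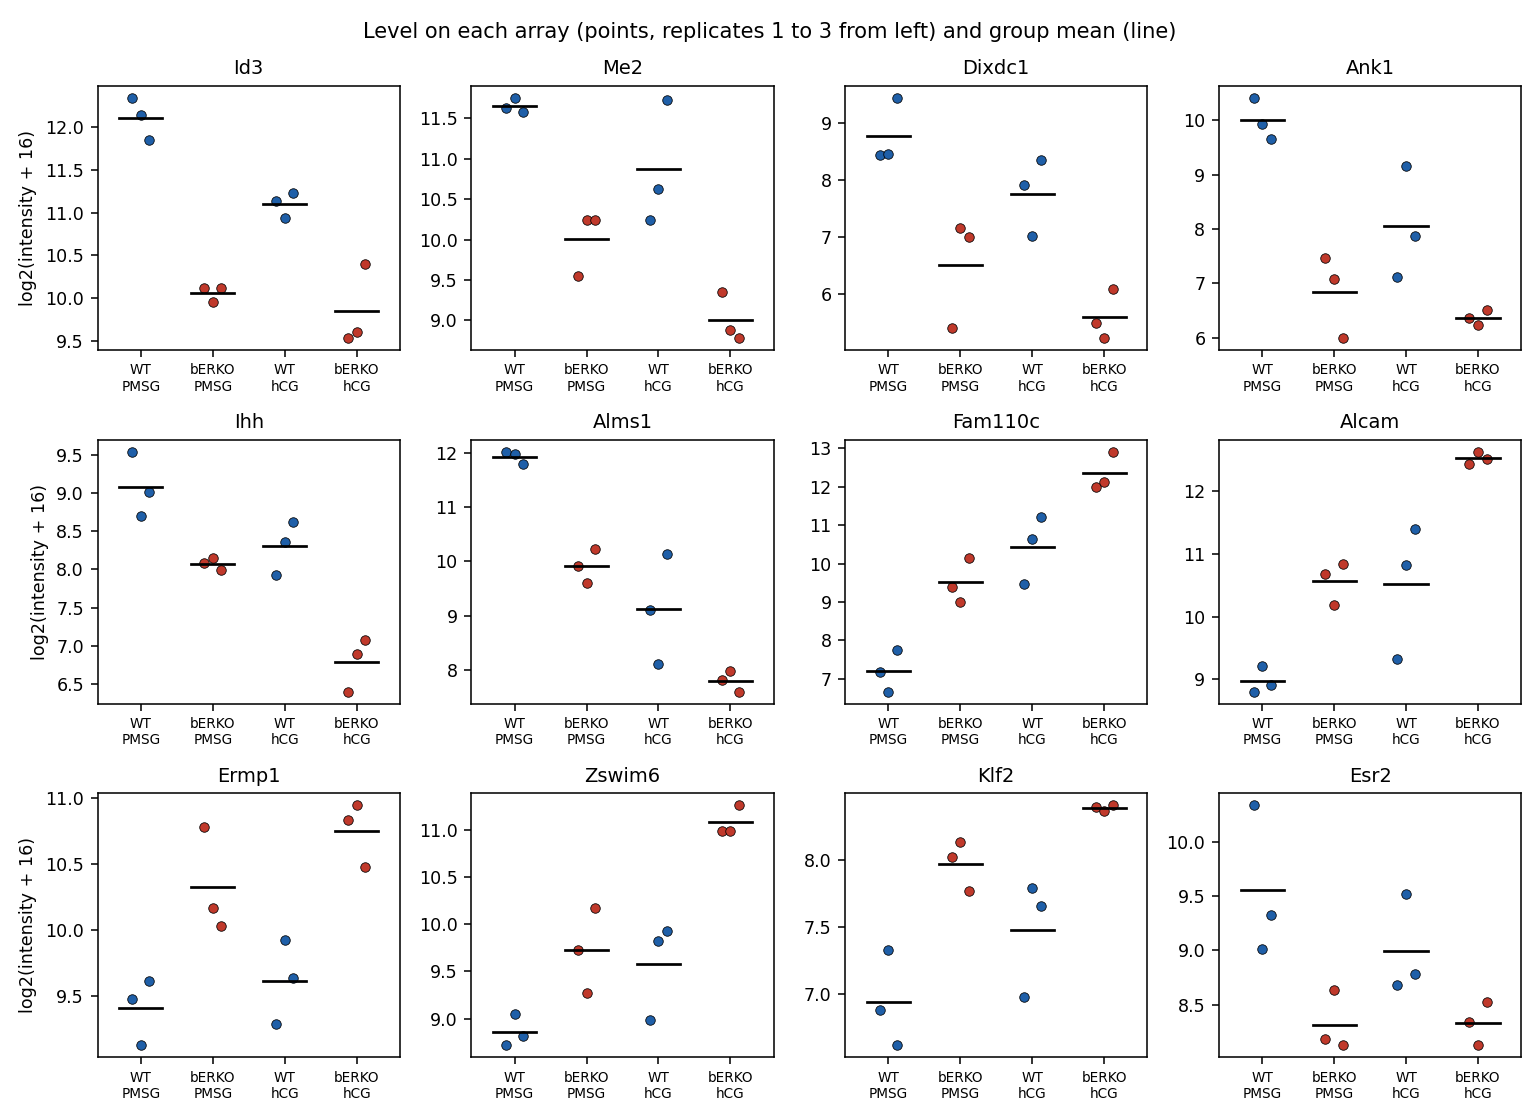
Level of 12 genes as log2(intensity + 16) on each array, WT in blue and bERKO in red, with 3 arrays per group and the group mean as a line; each panel has its own vertical scale. In every panel the WT and bERKO points do not overlap within PMSG or within hCG.

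Dim genes made up the rest of the higher group. Tspan1, a tetraspanin, ran from 4.31 to 4.94 over the WT arrays and from 5.23 to 6.92 over the bERKO arrays, with differences of 1.16 and 1.80. Its other probe set measured -0.18 and -0.40, in the opposite direction. Hapln1, the link protein that holds proteoglycans to hyaluronan in the expanding cumulus matrix, overlapped between genotypes after PMSG, the sole case among the 20 leading genes. Its differences were 1.23 and 2.06, and the mean of its 4 probe sets gave a blocked difference of only 0.37.

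Tcl1, Fbxw16 and Fbxw18 are known for expression in oocytes and early embryos, Tcl1 as a coactivator of AKT kinases and the others as F-box proteins. Tcl1 measured 4.38, 5.74 and 6.02 in WT PMSG and 7.68, 8.40 and 7.87 in bERKO PMSG. After hCG it measured 5.05, 5.63 and 4.25 in WT and 6.48, 5.99 and 6.71 in bERKO. The groups lay apart in each treatment, and the differences were 2.60 and 1.41, or 2.01 (SE 0.36) with treatment as a block (limma adjusted p = 0.157; 0.0437 in the fit of 4 group means). Fbxw16 differed by 2.93 and 1.65 and Fbxw18 by 2.51 and 2.15. The other Fbxw16 probe set measured 0.50 after PMSG and -0.22 after hCG.

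By their median, oocyte markers were higher in bERKO too, though their mean levels overlapped between genotypes after hCG. The mean level of the 14 measured markers was 5.71 to 8.03 in WT PMSG and 8.30 to 9.82 in bERKO PMSG, then 5.80 to 6.51 in WT hCG and 6.42 to 7.49 in bERKO hCG. Their median difference was 2.37 after PMSG and 0.76 after hCG, and 12 of the 14 had the same sign, beside 46.6% of all genes. In limma with treatment as a block, 10 of the 14 had an unadjusted p under 0.05, beside 10.4% of all genes, and 0 passed. In the wider set were 2 of the 14, Ooep, a protein of the oocyte's subcortical complex (2.48 and 1.69; 1.05 after hCG without WT hCG replicate 1), and Mos, the kinase that holds eggs in metaphase (1.49 and 1.15). The genotypes of Mos overlapped after PMSG. WT PMSG replicate 3, high for Fbxw16 and Fbxw18, was high for Ooep as well, at 9.16 beside 6.81 and 6.50. The part of captured oocyte RNA in the values of Tcl1, Fbxw16 and Fbxw18 was not tested. Fbxw16 and Fbxw18 lie in a cluster of related genes with Fbxw19 and Fbxw24 between them, which measured 4.00 and 2.36 after PMSG and 0.95 and 0.71 after hCG. Near-identical copies may share probes, so the values of these F-box genes cannot be assigned to single genes with certainty.

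**Figure D3:**
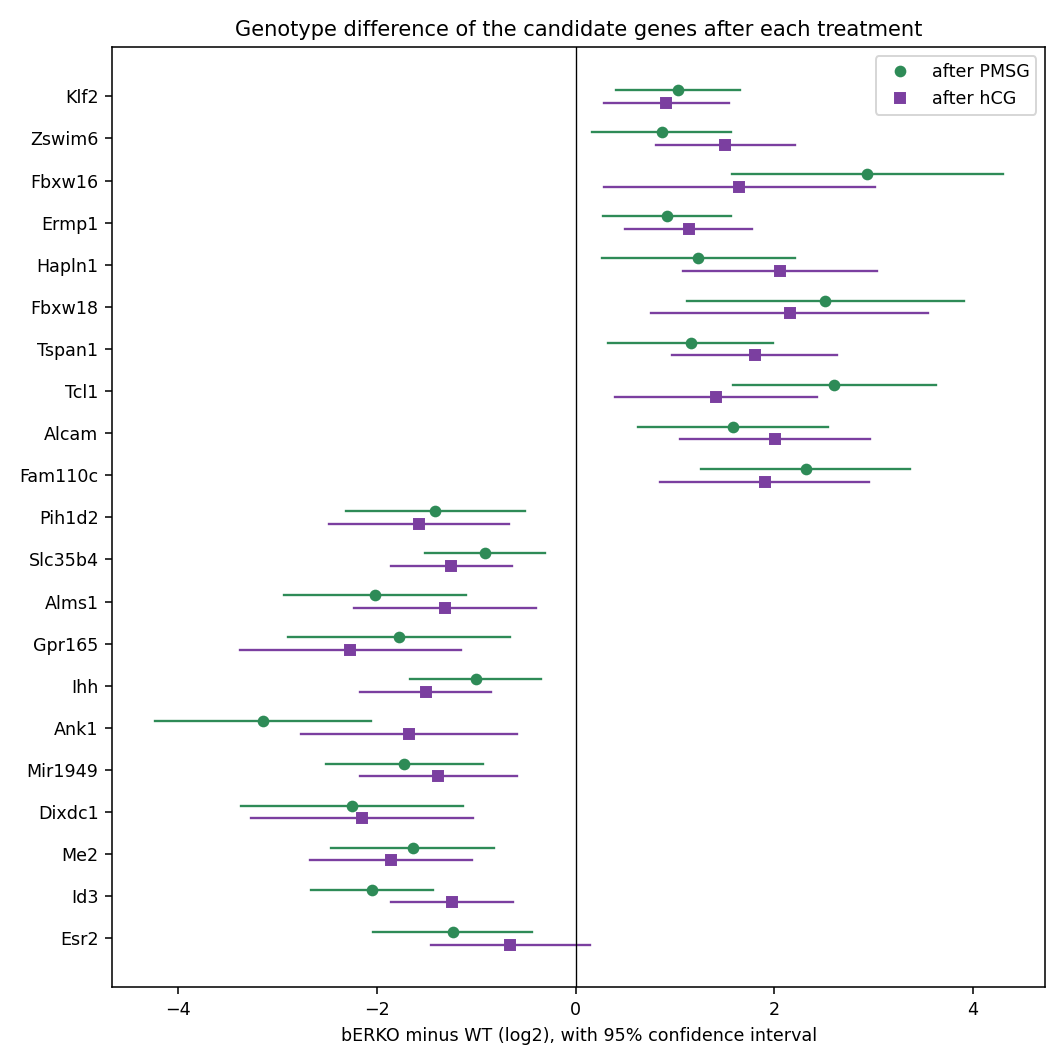
bERKO minus WT in log2 units for Esr2 and the 20 leading genes, after PMSG (circles) and after hCG (squares), each with the 95% confidence interval of the fit of 4 group means. The intervals of the 20 leading genes lie on a single side of 0 after each treatment, as the choice of small p favours; that of Esr2 after hCG runs from -1.46 to 0.14.

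Values at the border of the rule were close together. Among genes called for the average difference, Ank1 with a ratio of 0.533 and Tcl1 with 0.543 lay just inside the limit of 0.5. Kirrel3, an adhesion protein of the nephrin family, with 0.496, and Cfap52, a protein of motile cilia, with 0.492, lay just outside. Kirrel3 differed by -1.5 after PMSG and -3.03 after hCG, and Cfap52 by 0.81 and 1.64.

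The difference between treatments was itself tested. For the 20 leading genes the interaction passed in limma for 0, against 239 of all genes (1.31%), which the choice of similar sizes fixes in part. The widest of their intervals, for Fbxw18 and Fbxw16, ran from -2.33 to 1.61 and from -3.21 to 0.64, so that sizable differences between treatments remain possible. In contrast, Esr1, estrogen receptor alpha, was at 8.43 to 8.87 in WT PMSG and 9.65 to 10.34 in bERKO PMSG, then at 7.42 to 8.07 in WT hCG and 6.14 to 7.08 in bERKO hCG. Its differences of 1.31 and -1.24 cancelled to 0.03 with treatment as a block, a value whose sign turned with values as deposited, an offset of 1, the mean of probe sets or array weights, and the interaction passed at -2.55 (limma adjusted p = 0.0236). Of the 26 genes called for the average difference, 18 were not shared. Mpzl2, an adhesion protein, was at -0.02 after PMSG and 7.04 after hCG. Tmem26, a transmembrane protein, was at 0.01 and 3.23, and Cdh11, a cadherin, at 0.70 and 2.87. Among the lower ones Nat8f3, an acetyltransferase family member, was at -0.72 and -3.39. The immunoglobulin gene Igk was at -4.38 and -0.50, though its 4 probe sets disagreed.

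The average hCG response, hCG minus PMSG over both genotypes, used neither the genotype difference nor its interaction. In all genes limma called 3488 responses (19.2%), 1221 higher and 2267 lower after hCG. Of the 20 leading genes 10 passed, 4 higher and 6 lower. Fam110c rose by 3.04 (SE 0.34), Alcam by 1.75 (SE 0.31) and Zswim6 by 1.04 (SE 0.23), with limma adjusted p-values of 0.000243, 0.0027 and 0.00812. For these 3 genes the genotype difference had the direction of the hCG response. Fbxw16 was higher in bERKO and fell after hCG, by 1.73 (SE 0.44, limma adjusted p = 0.0177). Of the lower genes, Alms1 fell by 2.46 (SE 0.30), Ank1 by 1.21, Ihh by 1.03, Me2 by 0.89 and Id3 by 0.62 (limma adjusted p = 0.0498), again in the direction of the genotype difference. The Mir1949 probe set rose after hCG, by 1.19, against it.

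**Figure D4:**
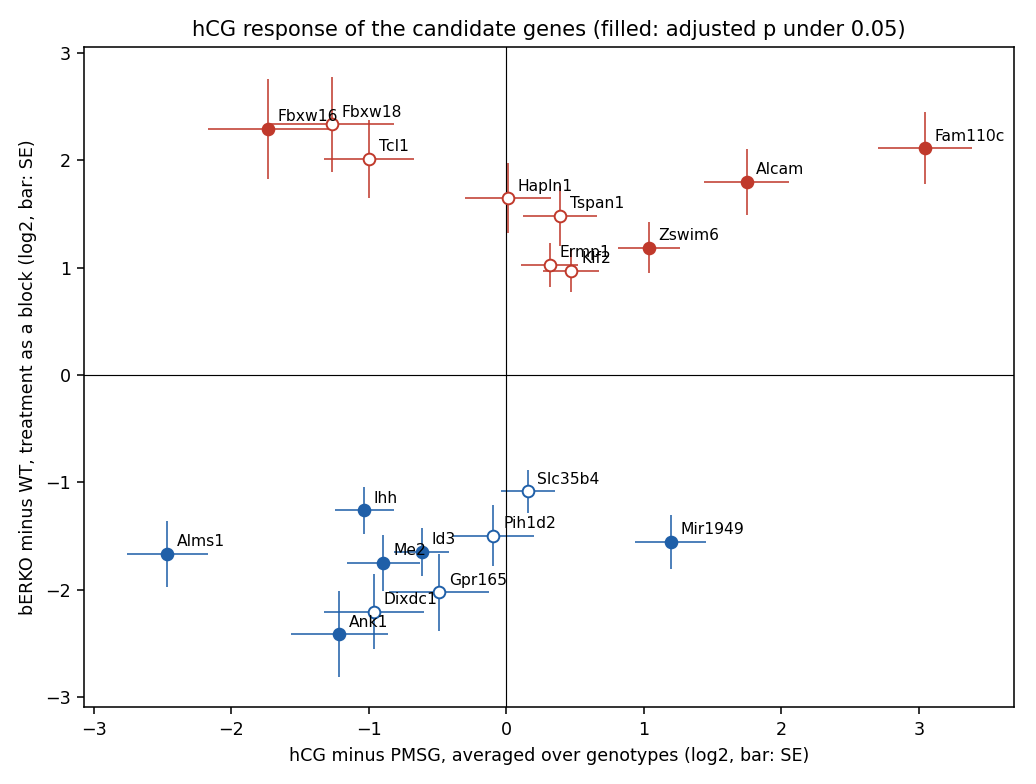
Average hCG response (horizontal) against the blocked genotype difference (vertical) of the 20 leading genes in log2 units, with standard errors as bars; filled points passed for the hCG response. Fam110c, Alcam and Zswim6 are filled in the upper right, and Alms1, Ank1, Ihh, Me2 and Id3 in the lower left.

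The wider set had the same lean. Of its 386 genes higher in bERKO, 47 (12.2%) rose and 28 (7.25%) fell after hCG, beside 6.71% and 12.5% of all genes. Of its 420 genes lower in bERKO, 11 (2.62%) rose and 92 (21.9%) fell. The median response was 0.01 for the higher genes, -0.33 for the lower genes and -0.14 for all genes. Both contrasts use each gene's spread, and a small spread favours a call in each. Both also use WT hCG replicate 1, whose mean level on the ovulatory response list was 7.70. The other WT hCG arrays had 9.67 and 9.86 there. These counts were not repeated without that array, and the part of the spread and of the array was not tested.

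Of 49 measured genes of the ovulatory response list 4 were in the wider set (8.16% against 4.43%) and all 4 were higher in bERKO; 0 passed in the blocked fit. Beside Hapln1 these were the plasminogen activator Plat (1.30 and 1.92), the urokinase receptor Plaur (1.22 and 1.5) and the MAP kinase phosphatase Dusp4 (1.55 and 2.01). The genotypes of Plat and Plaur overlapped after PMSG. For Plat, WT PMSG replicate 3 at 8.30 lay above the bERKO PMSG arrays, at 7.74 to 8.18. Dusp4 measured 5.63, 4.31 and 5.96 in WT PMSG, 6.0, 7.62 and 6.92 in bERKO PMSG, 5.94, 8.25 and 8.41 in WT hCG, and 9.53, 9.37 and 9.73 in bERKO hCG. Its genotypes lay apart in each treatment, and WT hCG replicate 1 was again at the WT PMSG level. Without that array the Dusp4 difference after hCG was 1.21 in place of 2.01. The median of the list was -0.07 after PMSG and 1.85 after hCG. WT hCG replicate 1 stood apart on this list, with a mean level of 7.70 beside 9.67 and 9.86 on the other WT hCG arrays and 7.34 to 7.69 on the WT PMSG arrays; without it the median after hCG was 1.10.

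Of 24 measured granulosa transcription factors 3 were in the wider set (12.5% against 4.43% of all genes), and 0 passed. Cebpb, which luteinizing hormone raises and which ovulation needs, was higher in bERKO: it ran from 10.25 to 10.48 in WT PMSG, 10.96 to 11.53 in bERKO PMSG, 11.25 to 12.10 in WT hCG and 12.28 to 12.44 in bERKO hCG. Its differences were 0.87 and 0.60 (blocked 0.73, SE 0.20, limma adjusted p = 0.283), with the genotypes apart in each treatment. Nr5a1, the steroidogenic factor that drives many granulosa genes, measured -0.86 and -0.55, and its genotypes overlapped after hCG. Sox9, a factor of the male pathway, measured 0.51 and 0.67 near the floor, and its genotypes overlapped after PMSG. The other Nr5a1 probe set measured -0.53 and 0.25, and 1 of the 2 other Sox9 probe sets had the opposite blocked direction. Ncoa2, a coactivator of nuclear receptors, measured -0.36 and -0.42, and was with Esr2 the only one of 24 measured estrogen receptor and coregulator genes in the wider set (8.33% of that list). Of the 3 other Ncoa2 probe sets, 0 were lower in bERKO after each treatment.

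Npr2, the receptor through which natriuretic peptide C keeps the oocyte in meiotic arrest, had nearly equal differences. It measured 10.76, 11.07 and 11.03 in WT PMSG and 10.12, 10.16 and 8.93 in bERKO PMSG, then 10.54, 10.32 and 10.91 in WT hCG and 8.77, 9.70 and 9.89 in bERKO hCG. The genotypes lay apart in each treatment, at -1.22 and -1.14 (blocked -1.18, SE 0.27, limma adjusted p = 0.237). Its ligand Nppc measured 0.23 after PMSG and -2.53 after hCG. Gja4, the connexin of oocyte gap junctions, was the other of the 16 measured genes of that list in the wider set, at 1.03 and 1.55. The wider set thus held 12.5% of the list, against 4.43% of all genes. The genotypes of Gja4 overlapped after PMSG, at 4.94, 4.43 and 7.55 in WT and 6.31, 6.14 and 7.56 in bERKO.

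Hsd11b2, which inactivates glucocorticoids, was the only one of 17 measured steroid enzymes in the wider set (5.88% against 4.43% of all genes). It ran from 11.88 to 12.15 in WT PMSG and from 10.69 to 10.92 in bERKO PMSG, then from 9.25 to 10.61 in WT hCG and from 8.80 to 9.26 in bERKO hCG, where the ranges just overlapped. Its differences were -1.19 and -0.91 (blocked -1.05, SE 0.23, limma adjusted p = 0.201). Without WT hCG replicate 1 the difference after hCG was -0.58. The cAMP list gave 3 of 37 (8.11%), the anchoring protein Akap12 (2.75 and 1.64), the phosphodiesterase Pde1c (0.67 and 0.73) and the transcription factor Creb1 (-0.56 and -0.65; -0.28 after hCG without WT hCG replicate 1). Akap12 was widely spread within WT PMSG, from 4.40 to 8.62. The probe sets of Pde1c and Creb1 disagreed: the blocked difference was opposite in 4 of 5 others for Pde1c and in 2 of 5 others for Creb1. Adhesion genes gave 2 of 44 (4.55%), Alcam and Gja4, about the 4.43% of all genes, and the survival and death list gave 2 of 27 (7.41%), Bid (-0.72 and -0.99) and Fasl (0.67 and 0.64). Fasl lay near the floor, and its other probe set was opposite, at -0.49 and -0.33; of the 2 other Bid probe sets, 1 measured 0.52 and -0.40. The lists of cholesterol, Wnt, growth factor, cell cycle and aryl hydrocarbon receptor genes gave 0 each.

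Markers of some other cell types were in the wider set too. Beside the 2 oocyte markers (14.3% of that list), the wider set held 1 of 15 stroma and smooth muscle markers (Myh11, 6.67%), 1 of 12 endothelium markers (Vwf, 8.33%), 1 of 16 leukocyte markers (Tyrobp, 6.25%) and 1 of 8 surface epithelium markers (Krt8, 12.5%), beside 4.43% of all genes. It held 0 of 8 theca and 0 of 3 erythrocyte markers. Of 14 measured granulosa markers it held Amh (0.79 and 1.11, near the floor in WT) and Gatm (-1.59 and -1.57). The genotypes of Gatm overlapped after hCG. The median difference of granulosa markers was -0.17 after PMSG and -1.20 after hCG, and that of endothelium markers -0.26 and 1.65. That of stroma markers was 0.14 and 1.01, and that of leukocyte markers 0.30 and 0.72. Of the 16 leukocyte markers, 8 had the same sign after each treatment. Without WT hCG replicate 1 the differences after hCG were 0.26 in place of 1.01 for Myh11 and -0.41 in place of -0.89 for Krt8. The part of other cells in the differences of single genes was not tested.

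Position on the chromosome was not used by the rule. Of the 100 tested genes on each side of Esr2 in gene order, 0 passed in the blocked fit, and 18 of the 200 (9%) were in the wider set, 7 higher and 11 lower, beside 4.43% of all genes. The share was 8% with 50 genes on each side, 8% with 200 and 6.6% over the 621 tested genes of the chromosome. With the mean of all probe sets per gene in place of the brightest it was 5.5%. Among these neighbours, named after their values were seen, Sos2, an exchange factor for RAS, measured 0.79 and 0.93, and Rdh11, a retinol dehydrogenase, 0.94 and 0.95. Pygl, the liver glycogen phosphorylase, measured -0.79 and -1.14. Of the 20 leading genes, Fam110c and Tcl1 lay on that chromosome, which carries 3.45% of the placed genes. DNA beside a disrupted gene can keep the strain of the cells it was made in; the strain of the WT mice was not given in the sources used here, and its part was not tested.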

How the data were processed

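Values were linear intensities, 1 per probe set, which the authors had scaled to a trimmed mean of 500.0 per array before they were deposited; the signal software was not given in the sources used here. Per the labels' protocols, amplification used NuGEN Ovation Pico WTA. Of 45101 probe sets, 64 were controls, 34945 named 1 gene and were used, 932 named several and 9160 were unlisted. Intensities were quantile normalized and analysed as log2(intensity + 16), with the brightest probe set of each gene. limma 3.58.1 in R 4.3.3 fitted genotype with treatment as a block, and separately 4 group means, with Benjamini-Hochberg adjustment over 18193 genes; tests were two-sided.

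The members and lists were chosen with earlier results of these data known. The rule for named genes took shared genes apart in each treatment. Since under 5 genes were shared, it took the 10 smallest p per direction among genes of the same sign and a ratio of at least 0.5, leaving out unnamed genes. It added members of the 22 fixed lists, up to 4 each, and border and contrast genes, Esr2, Esr1, Cadm3 and Igk. With 0 calls in the blocked fit, list members came from the wider set and border and contrast genes from the fit of 4 group means; these stand-ins, and Id2, Id4, Nppc, Ptch1, Gli1 and Hhip, were chosen after values were seen. Same-numbered arrays did not deviate together (18 correlations from -0.08 to 0.12, median -0.01), so numbers were not treated as pairs. The fit was tested on simulated data. Figures used matplotlib 3.10.9.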

Additional observations from a re-analysis of the deposited data

Results flagged for a closer look

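For 6 named genes the genotype difference itself differed between treatments in limma's interaction test; each value is the difference after hCG minus that after PMSG, on the log2 scale. It was 7.12 for Cadm3, a cell adhesion molecule (adjusted p = 0.00364), which was lower in bERKO after PMSG by -4.28 and higher after hCG by 2.85. It was 7.06 for Mpzl2 (adjusted p = 0.00671) and 3.22 for Tmem26 (adjusted p = 0.00819), both near 0 after PMSG. It was 3.88 for Igk (adjusted p = 0.0239), -2.67 for Nat8f3 (adjusted p = 0.0211) and -2.55 for Esr1 (adjusted p = 0.0236). These genes therefore stand outside the shared difference.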

How the results depend on the processing

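With treatment as a block, 0 genes passed and 0 were shared in the main setting, with values as deposited, arrays centred on their median, offsets of 1 and 64, and without the 2 arrays of highest Gapdh ratio. Called and shared genes numbered 26 and 8 with 4 group means, 7 and 6 with a trended and robust spread, 5 and 5 with array weights, 2 and 2 with the mean of all probe sets (Id3 and Gm39954), and 1 and 1 among genes above the median level (Id3). With 1 array left out they ran from 0 to 3 and from 0 to 3: 3 without WT hCG replicate 1 (Alcam, Ank1 and Gm39954), 1 without WT PMSG replicate 3 (Plat) and 1 without bERKO hCG replicate 3 (Id3). The 4-group fit with 1 array left out, and without the Gapdh pair, was added after seeing the data, as were values after hCG without WT hCG replicate 1; the first called from 0 to 53 genes, of which 0 to 14 were shared.

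The 20 leading genes kept their sign in every setting that tested them, which their choice on these same arrays favours. Similar size was kept by 14 of the 20 with the mean of all probe sets and by 17 with an offset of 64. Without the Gapdh pair only 7 of the 20 stayed among the 10 smallest p of their direction. With the mean of all probe sets 11 did. Id3 passed in 6 of its 24 settings, Ank1 in 4, Alcam and Me2 in 3, and Fam110c in 2. The blocked value of Esr1 turned to -0.058 as deposited, -0.032 with an offset of 1, -0.014 with the mean of probe sets and -0.15 with array weights, and ran from -0.186 to 0.264 with 1 array left out. Scaling moved the split of the wider set, 386 higher of 806, to 282 of 922 as deposited and 738 of 988 with median centring. Replicate number as a block gave 0 called and 801 in the wider set, and cut the interaction from 239 to 129 genes. The interaction gave 87 with an offset of 1, 451 with 64, 376 above the median level, 542 with trend and robust, 420 with weights, 120 without the Gapdh pair, and 81 to 408 with 1 array left out. The correlation across genes was -0.184 above the median level and -0.163 to -0.0657 with 1 array left out. Genes apart in the same direction numbered 732 without the Gapdh pair and 344 to 558 with 1 array left out; those apart in opposite directions 919 and 545 to 829, since fewer arrays overlap less. The wider set held 460 genes above the median level, where 9096 were tested. The share near Esr2 fell from 9% to 5.5% with the mean of probe sets. Unless stated, the cause was not tested. The number of arrays limits precision, and dim genes near the floor have only a compressed difference.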
